A study of Homo sapiens with 39 samples.

Results

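The long-chain acyl-CoA synthetases ACSL1, ACSL3, ACSL4, ACSL5 and ACSL6 were followed through every RNA-seq library of a study of prostate cancer cells treated with androgen pathway inhibitors (ARPi) and PARP inhibitors (PARPi). The 5 genes were chosen by name, as all members of the family, from 63187 genes in the count table, and each was found once by its Ensembl identifier. C4-2B, the 1 cell line used, is a castration-resistant prostate cancer line derived from LNCaP, and all groups were grown in medium with fetal bovine serum. A treatment panel held 21 libraries after 5 days, 3 in each of 7 groups. Cells received DMSO, the ARPi abiraterone acetate at 5 µM (here abiraterone) or enzalutamide at 20 µM, or the PARPi olaparib at 1 µM or talazoparib at 10 nM. The remaining pair of groups received abiraterone with olaparib or enzalutamide with talazoparib, at the same doses. A time course held 18 libraries, 3 in each of 6 groups: DMSO, olaparib at 1 µM and olaparib at 5 µM, each after 1 and 5 days. Totals of estimated counts lay between 26932205 and 49833473 per library, with a median of 37223200. No source used here says that replicates came from separate cultures, so the p-values measure the spread between these samples, which may be technical.

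Acyl-CoA synthetases join a fatty acid to coenzyme A, which traps the fatty acid in the cell and makes it usable for oxidation, for storage in lipid droplets, and for building membrane lipids. The members differ in where they sit and in the fatty acids they prefer. ACSL1 is found at the outer mitochondrial membrane and the endoplasmic reticulum and is linked to both oxidation and triglyceride synthesis. ACSL3 sits at the endoplasmic reticulum and on growing lipid droplets and is an androgen-responsive gene of prostate epithelium. ACSL4 prefers arachidonic acid and related polyunsaturated fatty acids and is known for its part in ferroptosis, ACSL5 is best known from the intestine and liver, and ACSL6 from the brain. The question was how the messages of these genes shifted against each other when androgen signaling or PARP was inhibited. The counts are per gene, so a switch here means a switch between the 5 genes, and transcript isoforms of 1 gene were not separated.

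The genes lie on 5 chromosomes of GRCh38. ACSL1 (ENSG00000151726.16) lies on the minus strand at chr4:184755595-184826818, ACSL3 (ENSG00000123983.15) on the plus strand at chr2:222860942-222944639, and ACSL4 (ENSG00000068366.21) on the minus strand at chrX:109624244-109733403. ACSL5 (ENSG00000197142.11) lies on the plus strand at chr10:112374116-112428379, and ACSL6 (ENSG00000164398.15) on the minus strand at chr5:131949973-132012243. All 5 are protein-coding genes, with 17 exons in the canonical transcript of ACSL3 and 21 in that of ACSL1. The start regions of ACSL3 and ACSL1 are shown because these genes made up most of the family's messages and parted under ARPi, and a start region of ACSL5 because its message rose with every drug of the panel. Each is the 250 bases before a RefSeq transcript start (GRCh38.p14), written 5′ to 3′ on the gene's own strand: chr2:222860786-222861035 (plus) for ACSL3, chr4:184825969-184826218 (minus) for ACSL1, and chr10:112375955-112376204 (plus) for ACSL5. Alternative transcripts in GENCODE place exons over 94 of these bases in ACSL3, 151 in ACSL1 and 7 in ACSL5. Capitals mark every match, on either strand, to the short motifs searched. The GC box was written as GGGCGG, and the CCAAT box is its own name. The half-site of the androgen response element was written as AGAACA.
ACSL3: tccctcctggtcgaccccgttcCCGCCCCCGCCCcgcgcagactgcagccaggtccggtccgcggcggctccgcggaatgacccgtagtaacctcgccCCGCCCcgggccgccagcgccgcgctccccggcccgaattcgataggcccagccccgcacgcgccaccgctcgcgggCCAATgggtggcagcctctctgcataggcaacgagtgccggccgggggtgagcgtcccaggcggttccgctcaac
ACSL1: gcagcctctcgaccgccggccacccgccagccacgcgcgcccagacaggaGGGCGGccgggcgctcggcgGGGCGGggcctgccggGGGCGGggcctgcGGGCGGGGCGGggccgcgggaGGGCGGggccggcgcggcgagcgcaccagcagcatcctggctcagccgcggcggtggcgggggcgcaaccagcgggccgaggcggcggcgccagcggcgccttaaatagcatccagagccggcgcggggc
ACSL5: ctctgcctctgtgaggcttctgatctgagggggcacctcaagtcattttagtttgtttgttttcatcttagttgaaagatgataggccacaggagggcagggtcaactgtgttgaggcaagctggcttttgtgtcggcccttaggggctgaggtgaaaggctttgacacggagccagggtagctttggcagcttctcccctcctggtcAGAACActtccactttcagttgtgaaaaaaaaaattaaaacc

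RefSeq gave 16 windows of 300 bases (250 before and 50 after a start) for the 5 genes: 5 for ACSL1, 1 for ACSL3, 1 for ACSL4, 2 for ACSL5 and 7 for ACSL6. The ACSL3 window held 3 GC boxes and 1 CCAAT box and was 74.0% G and C, and the ACSL1 window shown held 6 GC boxes, 2 of them next to each other with a shared base, and was 82.3% G and C. Neither ACSL5 window held a GC or CCAAT box. The ACSL5 window shown is that of the RefSeq start farther from the canonical GENCODE start and held 1 androgen response half-site, while the window of the nearer start held none of the motifs searched. For ACSL3 and ACSL1 the window nearest the canonical start is shown. A GC box stood in 8 of the 16 windows and in 45% of all 35116 windows in the table. A CCAAT box stood in 2 of 16 and 34.6%, and the half-site in 4 of 16 and 14.8%. Some windows of ACSL6 overlap, and the same GC box is counted in more than 1 of them. The full palindromic androgen response element (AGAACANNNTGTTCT), the PPAR response element (direct repeats of AGGTCA with 1 base between) and the E-box (CACGTG) matched none of the 16 windows, and 0.00285%, 0.0228% and 7.26% of all windows. Both strands were searched. A match describes the letters in these windows only and does not show that a factor binds there.

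The 5 genes shared little sequence with each other. Of all 31-base stretches in the annotated transcripts, 18 were shared between 2 members, ACSL3 and ACSL6, and the share held in common with any other gene was 0.972% for ACSL1, 2.26% for ACSL3, 0.516% for ACSL4, 0% for ACSL5 and 15.4% for ACSL6. Most of the ACSL6 stretches belong to an overlapping protein-coding gene on the same strand (ENSG00000281938), to which 3 counts were assigned over all 39 libraries against 2589 for ACSL6. ZDHHC6 overlaps ACSL5 on the opposite strand and held 50360 counts against 1351 for ACSL5. The library kit keeps strand, but the strand setting used in counting is not given in the sources used here. Where ACSL5 rose, ZDHHC6 did not rise with it. Its log2 fold change was -0.21 with abiraterone, -0.25 with olaparib and -0.40 with abiraterone plus olaparib. Whether reads of ZDHHC6 were counted for ACSL5 was not tested.

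With DMSO, ACSL3 was the leading member. Levels are given as CPM, the count relative to the library's total after TMM scaling over all libraries, and, where genes are compared with each other, as CPM divided by the length of the canonical transcript and rescaled to the usual fixed sum per library (TPM). In the DMSO libraries of the panel, ACSL3 stood at a mean of 758 TPM, rank 134 of 28013 genes with counts, and ACSL1 at 240.0 TPM, rank 545. The other members were far lower, with 2.55 TPM for ACSL4, 0.497 for ACSL6 and 0.123 for ACSL5. All 5 genes passed the filter on low counts in both experiments, ACSL5 in the panel only through the treated groups, since its DMSO libraries held 4, 6 and 10 counts. Its calls were the same without the filter. The values of ACSL4, ACSL5 and ACSL6 rest on between 4 and 287 counts per library, those of ACSL1 and ACSL3 on at least 5568.

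**Figure D1:**
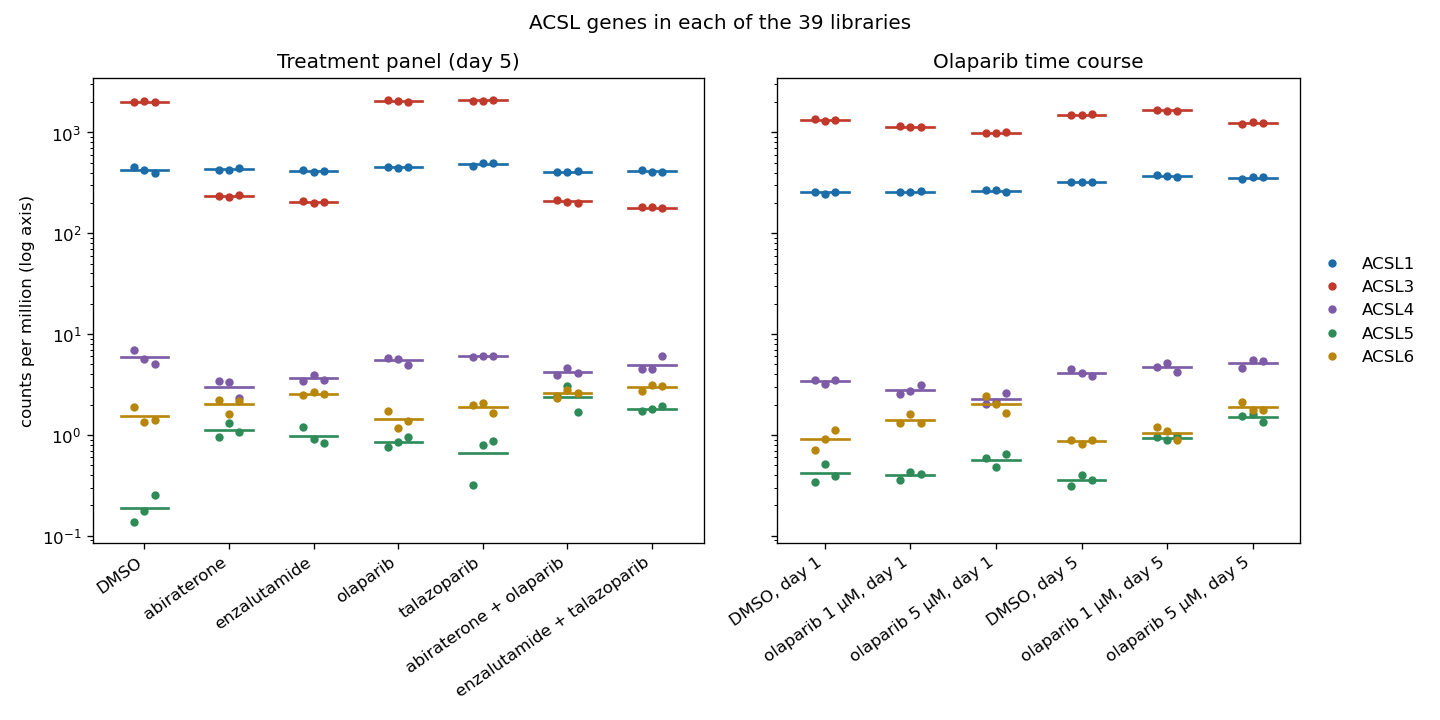
CPM of each ACSL gene (colors) in each of the 39 libraries, on a log axis; points are libraries and bars are the means of 3. ACSL3 falls from a mean of 2003 CPM with DMSO to between 177 and 242 CPM in the libraries of the 4 groups with an ARPi, below ACSL1, which stays between 393 and 502 CPM in all panel libraries; ACSL5 is lowest with DMSO and highest in the combinations.

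With both ARPi the message of ACSL3 fell more than 8-fold while the value of ACSL1 did not pass the test, and the order of the 2 leading genes turned over. ACSL3 stood at 1983, 2031 and 1996 CPM in the 3 DMSO libraries, at 237, 231 and 242 CPM with abiraterone, and at 207, 200.3 and 206 CPM with enzalutamide. Every treated library was far below every DMSO library. The log2 fold change was -3.08 ± 0.025 (SE) with abiraterone, 8.45-fold lower (edgeR quasi-likelihood test, Benjamini-Hochberg adjusted p = 7.92e-42, n = 3 per group), and -3.28 ± 0.025 with enzalutamide, 9.75-fold lower (adjusted p = 1.19e-42). These were the values ranked 127 and 179 from the lowest of 18625 genes tested. In bulk RNA, fewer cells with a message and less of it per cell cannot be told apart. ACSL1 stood at 451, 422 and 393 CPM with DMSO, 423, 428 and 439 CPM with abiraterone, and 420.3, 408 and 413 CPM with enzalutamide. The ranges overlapped, and the log2 fold changes were 0.031 ± 0.032 (adjusted p = 0.445) and -0.023 ± 0.032 (adjusted p = 0.581). The test drew its spread from all panel groups together. The SD of ACSL1 was 29 CPM with DMSO, 8.33 CPM with abiraterone and 6.21 CPM with enzalutamide. The SE may therefore understate the spread of the DMSO libraries. Without DMSO replicate A the ACSL1 value with abiraterone became 0.078 and passed the threshold. Without DMSO replicate C the ACSL1 value with enzalutamide became -0.072 and passed it.

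ACSL4, the synthetase for polyunsaturated fatty acids, also fell with both ARPi. It stood at 7.0, 5.70 and 5.03 CPM with DMSO, at 3.44, 3.31 and 2.31 CPM with abiraterone and at 3.44, 3.96 and 3.51 CPM with enzalutamide, without overlap. The log2 fold change was -0.96 ± 0.14 with abiraterone (adjusted p = 6.31e-07) and -0.68 ± 0.14 with enzalutamide (adjusted p = 7.58e-05). ACSL5 went the other way, from 0.137, 0.176 and 0.254 CPM with DMSO to 0.962, 1.31 and 1.08 CPM with abiraterone and 1.20, 0.920 and 0.836 CPM with enzalutamide. These were rises of 2.51 ± 0.34 (5.70-fold, adjusted p = 9.84e-08) and 2.33 ± 0.34 (5.01-fold, adjusted p = 4.33e-07) on the log2 scale, from a very low level. ACSL6 rose with enzalutamide, from 1.88, 1.35 and 1.40 CPM to 2.50, 2.64 and 2.53 CPM (log2 fold change 0.75 ± 0.18, adjusted p = 0.000596). With abiraterone its 3 libraries overlapped DMSO at 2.21, 1.62 and 2.19 CPM, and the value of 0.40 ± 0.18 did not pass (adjusted p = 0.0692), though it did without DMSO replicate A (0.55) or without abiraterone replicate B (0.53). With abiraterone 1 of the 5 genes rose and 2 fell, where 52.9% of all 18625 genes tested passed an adjusted p under 0.05, 25.8% higher and 27.1% lower. With enzalutamide 2 rose and 2 fell, where 53.3% passed, 27% higher and 26.3% lower. With so many genes called, these counts of 5 are no result about the family. In the direct comparison ACSL3 was lower with enzalutamide than with abiraterone, at a log2 difference of -0.21 ± 0.024 (1.15-fold lower, adjusted p = 5.31e-08). None of the other 4 passed in that comparison, where 19.8% of genes did.

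Per unit length, the family turned from mostly ACSL3 to mostly ACSL1 under ARPi. ACSL3 made up 75.7% ± 1.36 (SD, n = 3) of the summed TPM of the 5 genes with DMSO, 26.6% ± 0.381 with abiraterone and 24.5% ± 0.187 with enzalutamide. ACSL1 made up 24.0% ± 1.32, 72.6% ± 0.380 and 74.5% ± 0.137 in the same groups. ACSL4, ACSL5 and ACSL6 together filled the small rest. The sum itself fell from 1001 ± 7.77 TPM with DMSO to 351 ± 5.52 with abiraterone and 320.5 ± 2.39 with enzalutamide. The ratio of ACSL3 to ACSL1 went from 3.17 ± 0.228 with DMSO to 0.366 ± 0.00715 and 0.329 ± 0.00308. These shares follow from the levels above and were not tested. With the longest annotated transcript in place of the canonical one, ACSL1 held 31% with DMSO and 79.0% with abiraterone, and without length scaling 17.4% and 63.9%.

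**Figure D2:**
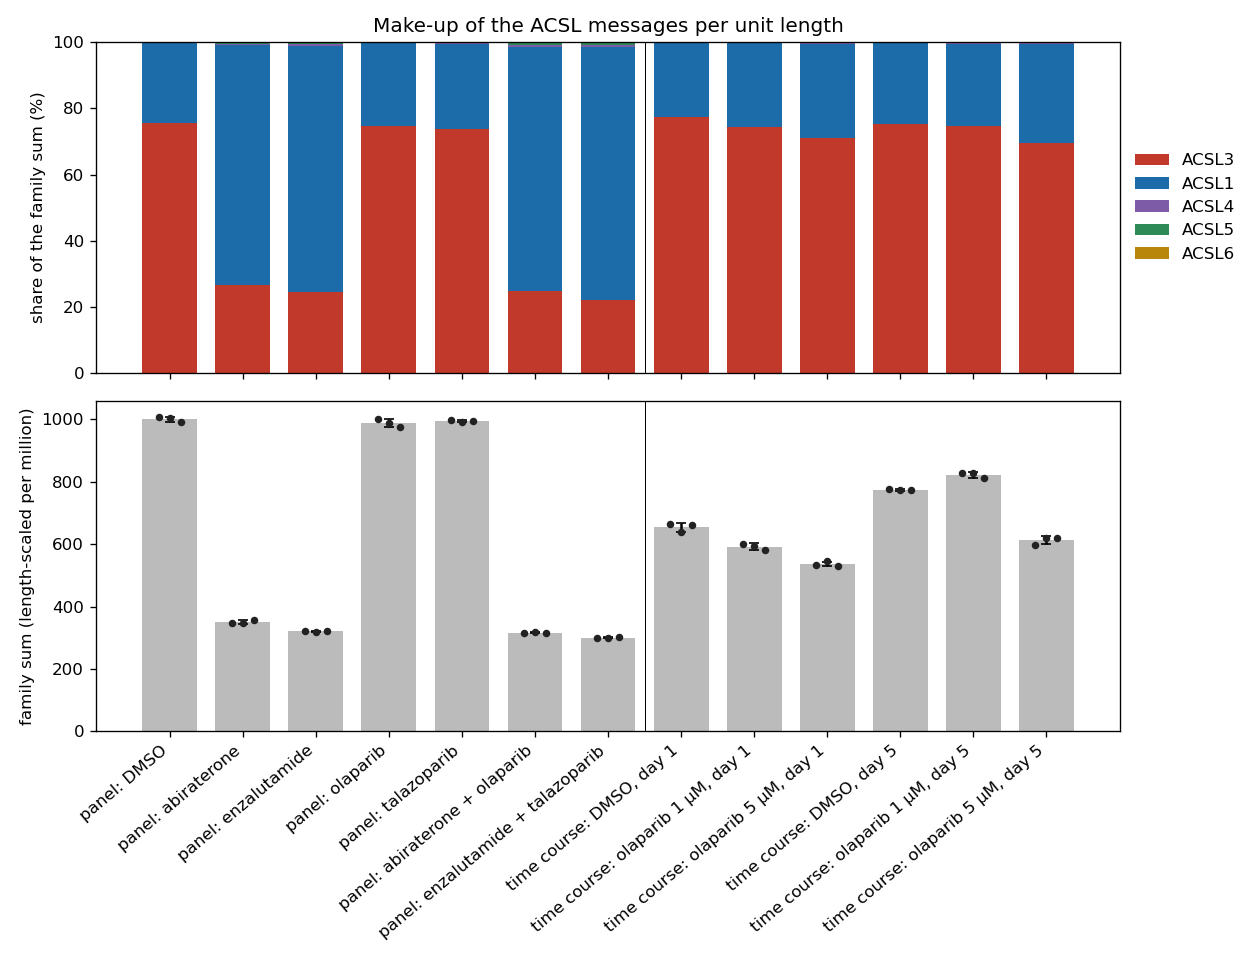
Upper bars: mean share (%) of each ACSL gene in the summed length-scaled level of the 5 genes, for the 13 groups; lower bars: that sum in TPM, as the mean of 3 libraries with the SD, and each library as a point. ACSL1 holds 24.0% with DMSO and between 72.6% and 76.4% in the 4 groups with an ARPi, in which the sum lies between 300.1 and 351 TPM against 1001 TPM with DMSO.

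With PARPi alone the 2 leading genes hardly moved. ACSL3 stood at 2085, 2058 and 2020 CPM with olaparib and at 2058, 2070 and 2122 CPM with talazoparib, close to DMSO. The log2 fold change was 0.043 ± 0.023 with olaparib (adjusted p = 0.144) and 0.062 ± 0.023 with talazoparib (adjusted p = 0.0327), and the latter call was lost under 4 alternatives of the processing and without any 1 of 5 libraries (DMSO replicates A and C and the 3 talazoparib replicates). ACSL1 rose slightly, to 458, 447 and 459 CPM with olaparib and 468, 502 and 494 CPM with talazoparib. Its log2 fold change was 0.11 ± 0.032 with olaparib (adjusted p = 0.00500), where the range overlapped DMSO, and 0.22 ± 0.032 with talazoparib (adjusted p = 2.56e-06), where it did not. The olaparib call was lost without DMSO replicate C (0.065), olaparib replicate A (0.094) or olaparib replicate C (0.092), while the talazoparib value stayed between 0.17 and 0.26. ACSL4 and ACSL6 did not pass with either PARPi.

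ACSL5 was the member that rose most with PARPi, from 4, 6 and 10 counts in the DMSO libraries. It stood at 0.763, 0.846 and 0.945 CPM with olaparib, above all DMSO libraries, a rise of 2.13 ± 0.35 on the log2 scale (4.37-fold, adjusted p = 6.41e-06). With talazoparib it stood at 0.316, 0.794 and 0.869 CPM, where replicate A, with 11 counts, was the lowest but still above DMSO. That rise was 1.79 ± 0.35 (3.45-fold, adjusted p = 0.000116). Olaparib changed 2 of the 5 genes, both upward, where 35.6% of all genes tested passed (19.6% higher, 16% lower), and talazoparib 3, all upward, where 33.8% did (18.4% higher, 15.4% lower). Between olaparib and talazoparib only ACSL1 passed, 0.10 ± 0.032 higher with talazoparib (adjusted p = 0.0424, with 8.36% of all genes called), and this call was lost without any 1 of 5 of the 6 libraries, all but talazoparib replicate A. It was also lost with a replicate block (0.10, adjusted p = 0.0579).

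**Figure D3:**
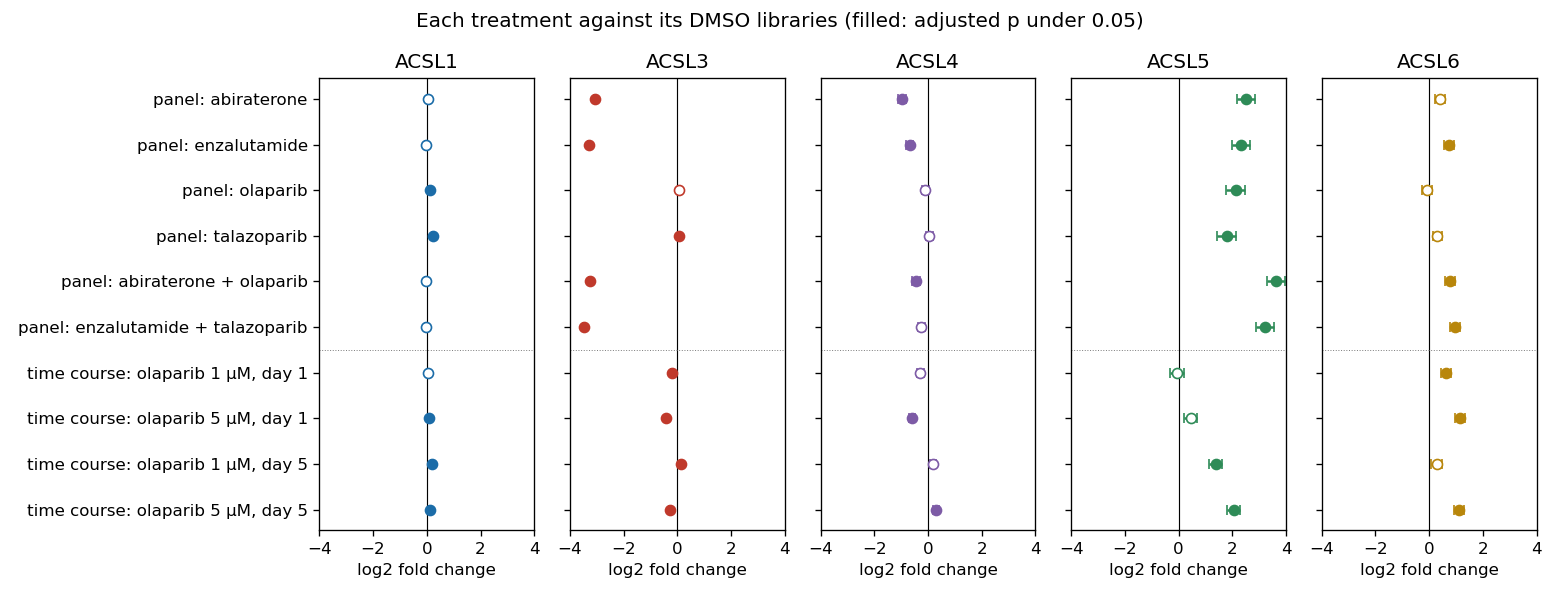
Log2 fold change of each ACSL gene against the DMSO libraries of the same experiment and day, with its standard error, for the 6 panel treatments and the 4 olaparib groups of the time course; filled points have an adjusted p under 0.05 (edgeR). ACSL3 lies between -3.08 and -3.47 in the 4 comparisons with an ARPi and between -0.42 and 0.13 in the others, and ACSL5 lies between 1.79 and 3.62 in all panel comparisons.

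In the combinations ACSL3 was slightly below its level with the ARPi alone, and ACSL5 was higher than with any single drug. ACSL3 stood at 213, 206 and 201 CPM with abiraterone plus olaparib and at 180.3, 182 and 177 CPM with enzalutamide plus talazoparib. The log2 fold changes against DMSO were -3.26 ± 0.025 (9.61-fold lower, adjusted p = 1.59e-42) and -3.47 ± 0.026 (11.1-fold lower, adjusted p = 2.38e-43). Each combination was below its ARPi alone, with a log2 difference of -0.19 ± 0.024 in both cases (adjusted p = 2.39e-07 and 1.26e-07) and without overlap of the libraries. ACSL3 was also lower with enzalutamide plus talazoparib than with abiraterone plus olaparib (-0.21 ± 0.024, adjusted p = 7.64e-08), the only member of 5 to pass there, where 12.5% of all genes did. ACSL1 stood within 409 to 420 CPM in all 6 combination libraries, with log2 fold changes of -0.032 ± 0.032 and -0.029 ± 0.032 against DMSO (adjusted p = 0.403 and 0.441), both of which passed without DMSO replicate C (-0.082 and -0.079). ACSL1 made up 73.9% ± 0.601 and 76.4% ± 0.345 of the family, the ratio of ACSL3 to ACSL1 was 0.336 ± 0.0102 and 0.290 ± 0.00575, and the family sum was 316 ± 1.77 and 300.1 ± 1.63 TPM.

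ACSL5 reached its highest levels in the combinations, with 2.41, 3.05 and 1.70 CPM with abiraterone plus olaparib and 1.75, 1.79 and 1.93 CPM with enzalutamide plus talazoparib. All 6 libraries were above every library of the single drugs. Against DMSO it rose by 3.62 ± 0.32 (12.3-fold, adjusted p = 5.35e-12) and 3.22 ± 0.33 (9.31-fold, adjusted p = 1.11e-10). It was also higher than with abiraterone alone (1.11 ± 0.26, adjusted p = 0.00106), olaparib alone (1.5 ± 0.26, adjusted p = 8.41e-06), enzalutamide alone (0.89 ± 0.26, adjusted p = 0.00672) and talazoparib alone (1.43 ± 0.27, adjusted p = 1.87e-05). ACSL6 stood at 2.34, 2.80 and 2.60 CPM and at 2.71, 3.09 and 3.08 CPM, rises of 0.77 ± 0.18 (adjusted p = 0.000405) and 0.95 ± 0.18 (adjusted p = 1.76e-05).

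For ACSL4 the fall was smaller in the combinations than with the ARPi alone. It stood at 3.97, 4.62 and 4.16 CPM with abiraterone plus olaparib, 0.50 ± 0.15 above abiraterone alone on the log2 scale (adjusted p = 0.00881) and at -0.45 ± 0.14 against DMSO (adjusted p = 0.00473). With enzalutamide plus talazoparib it stood at 4.47, 4.46 and 6.03 CPM, 0.44 ± 0.14 above enzalutamide alone (adjusted p = 0.0120), and its value against DMSO of -0.24 ± 0.13 did not pass (adjusted p = 0.116). Single libraries decided several of these calls. The fall with abiraterone plus olaparib did not pass without DMSO replicate A (-0.32), and the value with enzalutamide plus talazoparib did pass without DMSO replicate C (-0.35) or without its own replicate C (-0.39). The gain over abiraterone alone was lost without abiraterone replicate C (0.34) or combination replicate B (0.43), and the gain over enzalutamide alone without enzalutamide replicate A (0.40), enzalutamide replicate C (0.41) or combination replicate C (0.30). Against DMSO, 2 members rose and 2 fell with abiraterone plus olaparib, where 62.2% of all genes passed (31.1% in each direction), and 2 rose and 1 fell with enzalutamide plus talazoparib, where 62.4% did (31.2% higher, 31.3% lower). Against the single drugs, 3 of the 5 members passed between abiraterone plus olaparib and abiraterone (29.2% of all genes), 5 between it and olaparib (56.6%), 3 between enzalutamide plus talazoparib and enzalutamide (34.4%), and 4 between it and talazoparib (58.8%). Among these, the ACSL4 call against olaparib was lost without any 1 of 4 libraries (olaparib replicates A and B, combination replicates A and C) and with total-count scaling (-0.28), and ACSL4 passed against talazoparib (-0.41) without combination replicate C. The 6 panel comparisons share their DMSO libraries.

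An interaction term tested whether each combination departed from the sum of its single drugs on the log2 scale. ACSL3 departed by -0.23 ± 0.033 with abiraterone plus olaparib (adjusted p = 9.69e-06) and by -0.25 ± 0.033 with enzalutamide plus talazoparib (adjusted p = 1.91e-06). ACSL1 was lower than the sum as well, at -0.18 ± 0.045 (adjusted p = 0.00785) and -0.22 ± 0.045 (adjusted p = 0.000995). In direct comparison ACSL1 was lower with abiraterone plus olaparib than with olaparib (-0.15 ± 0.032, adjusted p = 0.000228) and lower with enzalutamide plus talazoparib than with talazoparib (-0.24 ± 0.032, adjusted p = 7.26e-08). With total-count scaling the first of these was -0.063 and lost its call. ACSL4 was above the sum for abiraterone and olaparib (0.60 ± 0.20, adjusted p = 0.0429), a call lost in 7 of the 12 fits that left out 1 library. For ACSL5 the departures of -1.01 ± 0.44 and -0.89 ± 0.44 did not pass (adjusted p = 0.131 and 0.197), though the second passed without talazoparib replicate A, the library with 11 counts (-1.17, adjusted p = 0.0497). In these comparisons 12.8% and 12.6% of all genes passed, and 3 and 2 of the 5 members.

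**Figure D4:**
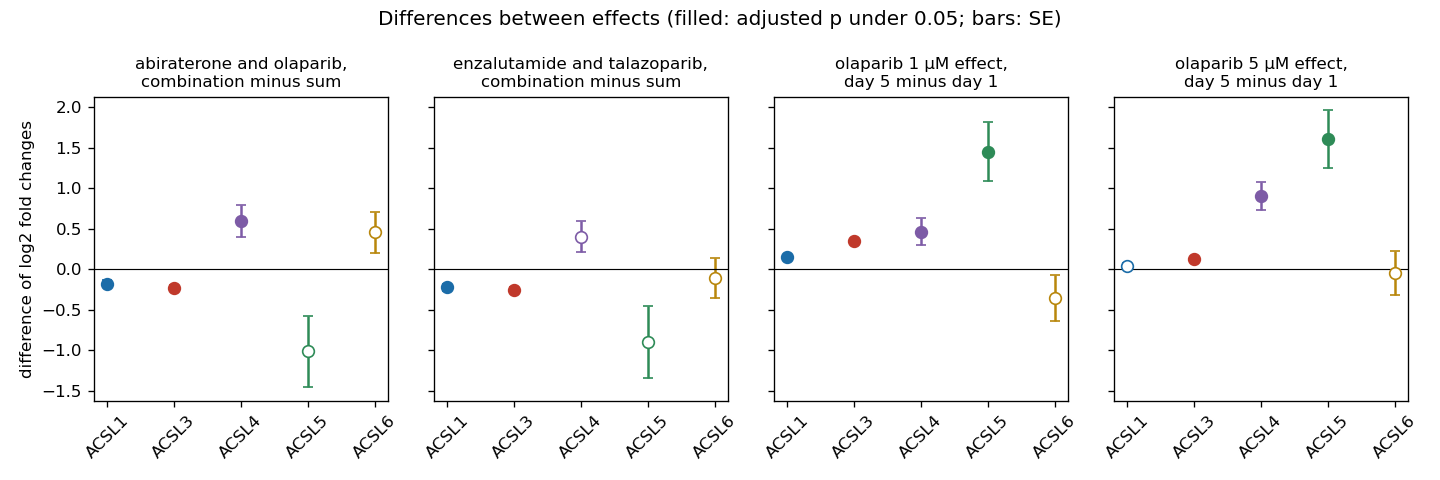
Difference between log2 fold changes for each ACSL gene, with its standard error: left, each combination minus the sum of its single drugs; right, the effect of olaparib on day 5 minus that on day 1 at each dose; filled points have an adjusted p under 0.05. ACSL1 and ACSL3 lie below 0 for both combinations, and ACSL5 lies at 1.45 and 1.61 for the days.

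In the time course ACSL3 fell with olaparib on day 1 and depended on the dose on day 5. On day 1 it stood at 1364, 1295 and 1341 CPM with DMSO, 1157, 1146 and 1122 CPM with olaparib at 1 µM and 984, 997 and 1002 CPM at 5 µM, without overlap. The log2 fold changes were -0.22 ± 0.017 (1.16-fold lower, adjusted p = 4.77e-12) and -0.42 ± 0.017 (1.33-fold lower, adjusted p = 3.00e-21). On day 5 it stood at 1505, 1490 and 1514 CPM with DMSO, 1671, 1651 and 1648 CPM at 1 µM and 1212, 1268 and 1253 CPM at 5 µM. These were log2 fold changes of 0.13 ± 0.017 at 1 µM (adjusted p = 4.17e-08) and -0.28 ± 0.017 at 5 µM (adjusted p = 3.90e-17). The doses differed by -0.20 ± 0.017 on day 1 (adjusted p = 1.21e-11) and -0.42 ± 0.017 on day 5 (adjusted p = 1.00e-21). The effect of 1 µM differed between the days by 0.35 ± 0.024 (adjusted p = 3.86e-14) and that of 5 µM by 0.13 ± 0.024 (adjusted p = 1.58e-05). With total-count scaling, which moved the median of all genes in the 5 µM comparison of days by -0.13, the latter value became 0.0014 and lost its call. All these changes were small beside the fall with ARPi.

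ACSL1 changed little with olaparib and rose with time in DMSO. It stood at 258, 248 and 256 CPM with DMSO on day 1 and at 325 CPM in each of the 3 DMSO libraries on day 5, a difference of 0.36 ± 0.022 (adjusted p = 6.36e-15), while ACSL3 was 0.17 ± 0.017 higher on day 5 (adjusted p = 8.25e-10). None of the other 3 genes passed between the days in DMSO, where 24.5% of all genes did. With olaparib on day 5 ACSL1 stood at 378, 371 and 363 CPM at 1 µM (0.18 ± 0.022, adjusted p = 8.64e-09) and 348, 359 and 358 CPM at 5 µM (0.12 ± 0.022, adjusted p = 1.27e-05), the latter not called with total-count scaling. On day 1 its values were 0.033 ± 0.022 (adjusted p = 0.357) and 0.070 ± 0.022 (adjusted p = 0.00863), and the second was lost without any 1 of 3 libraries (DMSO replicate 2, olaparib replicates 1 and 2). The ratio of ACSL3 to ACSL1 was 3.49 ± 0.0217 with DMSO on day 1 and 2.33 ± 0.0168 with 5 µM olaparib on day 5, the lowest of the time course, and ACSL3 remained above ACSL1 in all 18 libraries.

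ACSL5 was raised by olaparib on day 5 and not detectably on day 1. On day 1 it stood at 0.340, 0.519 and 0.389 CPM with DMSO, 0.357, 0.432 and 0.411 CPM at 1 µM and 0.586, 0.477 and 0.643 CPM at 5 µM, with overlapping ranges. The log2 fold changes were -0.060 ± 0.27 (adjusted p = 0.923) and 0.45 ± 0.26 (adjusted p = 0.181). On day 5 it stood at 0.308, 0.403 and 0.360 CPM with DMSO, 0.943, 0.897 and 0.978 CPM at 1 µM and 1.54, 1.61 and 1.33 CPM at 5 µM. The 3 groups did not overlap, and the rises were 1.39 ± 0.25 (2.62-fold, adjusted p = 1.22e-05) and 2.05 ± 0.24 (4.15-fold, adjusted p = 1.06e-09). The doses differed on day 5 by 0.67 ± 0.21 (adjusted p = 0.00762), and the effect differed between the days by 1.45 ± 0.36 at 1 µM (adjusted p = 0.00200) and 1.61 ± 0.35 at 5 µM (adjusted p = 0.000190). ZDHHC6, on the opposite strand, had log2 fold changes of -0.27 and -0.74 on day 5.

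ACSL6 rose with 5 µM olaparib on both days, and ACSL4 was lower with it on day 1 and higher on day 5. ACSL6 stood at 0.708, 0.920 and 1.11 CPM with DMSO on day 1, 1.32, 1.63 and 1.31 CPM at 1 µM and 2.42, 2.05 and 1.66 CPM at 5 µM. Its log2 fold change was 0.64 ± 0.19 at 1 µM (adjusted p = 0.0196), a call lost with DESeq2 and without DMSO replicate 1 (0.49) or olaparib replicate 2 (0.52), and 1.16 ± 0.19 at 5 µM (adjusted p = 2.82e-06). On day 5 the values were 0.28 ± 0.20 (adjusted p = 0.269) and 1.12 ± 0.19 (adjusted p = 2.87e-06). Its effect on day 5 minus that on day 1 was -0.35 ± 0.28 at 1 µM (adjusted p = 0.384) and -0.045 ± 0.27 at 5 µM (adjusted p = 0.905), and neither passed. ACSL4 stood at 3.54, 3.21 and 3.53 CPM with DMSO on day 1 and at 2.04, 2.10 and 2.62 CPM with 5 µM, a log2 fold change of -0.59 ± 0.13 (adjusted p = 0.000175). On day 5 it stood at 4.49, 4.09 and 3.83 CPM with DMSO and at 4.57, 5.51 and 5.43 CPM with 5 µM, a rise of 0.31 ± 0.11 (adjusted p = 0.0165), which was lost with total-count scaling (0.23) and without DMSO replicate 3 (0.25), olaparib replicate 2 (0.27) or olaparib replicate 3 (0.28). The difference between the days was 0.90 ± 0.17 at 5 µM (adjusted p = 2.39e-05). At 1 µM it was 0.47 ± 0.17 (adjusted p = 0.0319), a call lost with DESeq2, without the filter, with total-count scaling and in 7 of the 12 fits that left out 1 library.

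On day 1, 1 member rose and 1 fell at 1 µM, where 15.8% of 18502 genes passed (6.3% higher, 9.52% lower), and 2 rose and 2 fell at 5 µM, where 45% passed (21.6% higher, 23.4% lower). On day 5, 3 rose at 1 µM, where 46.3% passed (23.4% higher, 22.9% lower), and 4 rose and 1 fell at 5 µM, where 68.2% passed (34.4% higher, 33.9% lower). Between the doses 2 of the 5 passed on day 1 and 4 on day 5, where 28.8% and 53.6% of all genes did. Of these, ACSL6 on day 1 was lost without any 1 of 4 olaparib libraries (replicates 1 and 3 at 1 µM, 1 and 2 at 5 µM), with DESeq2 and without the filter on low counts. ACSL1 on day 5 was lost without replicate 1 at either dose and without the filter, while ACSL4 on day 1 passed (-0.43) without replicate 3 at 5 µM. Between the days, the effect of 1 µM differed for 4 of the 5 and that of 5 µM for 3, where 29.8% and 54.9% did. The groups of a day share their DMSO libraries.

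The panel and the time course both held olaparib at 1 µM for 5 days. The log2 fold changes were 0.043 and 0.13 for ACSL3, 0.11 and 0.18 for ACSL1, -0.094 and 0.18 for ACSL4, 2.13 and 1.39 for ACSL5, and -0.086 and 0.28 for ACSL6, of which those of ACSL4 and ACSL6 and the panel value of ACSL3 did not pass. In a fit of all 39 libraries the difference passed for ACSL3 (panel minus time course -0.10 ± 0.029, adjusted p = 0.0443, 1.94% of all genes called), and it was lost with RLE scaling, without the filter on low counts, and without any 1 of 9 of the 12 libraries. For ACSL1 the difference of -0.082 ± 0.040 did not pass (adjusted p = 0.363), but it became -0.14 and passed without panel DMSO replicate C (adjusted p = 0.0252). The differences for ACSL4 (-0.29 ± 0.18, adjusted p = 0.517), ACSL5 (0.73 ± 0.42, adjusted p = 0.487) and ACSL6 (-0.38 ± 0.27, adjusted p = 0.581) did not pass. Levels also differed between the experiments: ACSL3 in DMSO on day 5 was 2003 ± 24.8 CPM in the panel and 1503 ± 12.1 CPM in the time course, where experiment and any difference in handling cannot be told apart.

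Ordered by mean CPM, ACSL3 was lowest in the 4 groups with an ARPi, then came the 6 groups of the time course, and the 3 panel groups without an ARPi were highest. Enzalutamide overlapped abiraterone plus olaparib, and DMSO, olaparib and talazoparib overlapped in a chain, while all other neighbors in the order were apart. ACSL1 followed the experiment and the day instead, from 254 CPM with DMSO on day 1 to 488 CPM with talazoparib in the panel. For ACSL4 every neighbor in the order overlapped the next. ACSL5 was lowest in panel DMSO and highest in the combinations, and ACSL6 was lowest in the DMSO groups of the time course and highest in the combinations.

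Over the 21 panel libraries, genes whose log2 CPM followed ACSL3 most closely, of 12352 with a mean of at least 100 counts, included ZNG1A (Pearson r = 0.998) and SLC45A3 (r = 0.997), the prostein gene of prostate epithelium. For ACSL1 they were P4HA1 (0.912), PPFIA4 (0.906) and CCDC25 (0.902), for ACSL4 ZFAS1 (0.914), EPHA6 (0.875) and TUSC3 (0.872), for ACSL5 XG (0.956), CAMK2B (0.950) and FAXDC2 (0.948), and for ACSL6 ZNF484 (0.920), SNHG29 (0.906) and ZNF277 (0.905). Among the members, ACSL3 had r = 0.664 with ACSL1, 0.699 with ACSL4, -0.729 with ACSL5 and -0.807 with ACSL6. These are descriptions over libraries that share treatments, and each group of 3 counts 3 times in them.

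Known target genes of the treatments moved in the same libraries. KLK3, which encodes PSA, fell by 1.58 with abiraterone and 2.25 with enzalutamide on the log2 scale, and TMPRSS2 by 2.45 and 2.80. CDKN1A, a p53 target, rose by 2.18 with olaparib and 1.98 with talazoparib. Prostate epithelial genes (HOXB13, FOLH1, KRT8, KRT18, EPCAM) were present, with a mean of at least 81.5 CPM with DMSO, abiraterone and olaparib. Of the markers of other cells, CD3E and COL1A2 had no counts in these 9 libraries, TP63, PECAM1, DCN and KRT5 had at most 2, and PTPRC had 0 to 3 with DMSO and 9 to 15 with abiraterone. CD68 (170 to 229 counts with DMSO, 502 to 569 with olaparib), VWF (482 to 548 with DMSO) and COL1A1 (362 to 446) were counted, and their part in the ACSL values was not tested.

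Around the ACSL genes, other steps of fatty acid handling changed in both directions with abiraterone. Of 14 other acyl-CoA synthetases tested, 3 rose and 6 fell with abiraterone. ACSS3 rose by 1.17 ± 0.14 (adjusted p = 1.18e-08) and ACSS1, which makes acetyl-CoA in mitochondria, by 0.95 ± 0.073 (adjusted p = 1.90e-13), while SLC27A5 fell by 0.62 ± 0.077 (adjusted p = 2.15e-08). Of 16 genes of fatty acid elongation and desaturation, 4 rose and 10 fell, with a median log2 fold change of -0.25 against 0.00030 over all genes tested. ELOVL2 and ELOVL7, elongases, fell by 2.96 ± 0.095 and 2.34 ± 0.032 (adjusted p = 3.40e-24 and 2.40e-35), and SCD5, a desaturase, rose by 2.28 ± 0.16 (adjusted p = 1.90e-14). With enzalutamide the values of these 3 were -4.18, -2.76 and 2.57.

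The genes that hand fatty acids to and from the synthetases were mixed as well. Of 12 uptake and binding genes, 5 rose and 5 fell with abiraterone. LPL, the lipase that frees fatty acids from lipoproteins, fell by 1.31 ± 0.068 (adjusted p = 4.47e-18) and DBI, the acyl-CoA binding protein, by 1.04 ± 0.028 (adjusted p = 2.13e-26). Of 22 genes of glycerolipid and phospholipid acylation, 9 rose and 7 fell. MBOAT2, which puts acyl chains into membrane phospholipids, fell by 2.32 ± 0.031 (adjusted p = 2.45e-35), and MBOAT1 and LPIN3 rose by 1.10 ± 0.11 (adjusted p = 2.90e-10) and 0.80 ± 0.068 (adjusted p = 2.41e-12). In the list of the carnitine shuttle, 2 of 8 genes rose and 3 fell. CPT1C and CRAT rose by 1.22 ± 0.14 (adjusted p = 3.76e-09) and 0.54 ± 0.065 (adjusted p = 6.24e-09), and SLC25A20, the carnitine carrier, fell by 0.50 ± 0.056 (adjusted p = 1.79e-09).

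Among 9 acyl-CoA thioesterases, which undo the reaction of the synthetases, 1 rose and 4 fell with abiraterone, led by ACOT9 at -0.97 ± 0.050 (adjusted p = 3.19e-18). ACOT13 fell by 0.27 ± 0.045 and ACOT11 rose by 0.42 ± 0.078 (adjusted p = 3.48e-06 and 2.23e-05). Of 13 genes of lipid droplets and triglyceride hydrolysis, 4 rose and 5 fell. SOAT1, which esterifies cholesterol, fell by 1.09 ± 0.052 (adjusted p = 2.98e-19), MGLL fell by 0.38 ± 0.040 (adjusted p = 3.57e-10) and PLIN4, a droplet coat protein, rose by 1.01 ± 0.19 (adjusted p = 2.50e-05). Of 19 genes of lipid peroxidation and ferroptosis, 7 rose and 9 fell. MBOAT1 and MBOAT2 are in this list too, and SLC7A11, the cystine importer, fell by 0.97 ± 0.068 (adjusted p = 2.72e-09). Of 13 lipid transcription factors, 5 rose and 8 fell, with PPARGC1A at -1.02 ± 0.13, RXRA at 0.70 ± 0.039 and PPARD at 0.65 ± 0.048 (adjusted p = 2.16e-08, 4.27e-17 and 6.41e-14). All counts stand beside the 52.9% of all genes that passed with abiraterone. The median log2 fold change was -0.13 for the other synthetases, 0.00040 for uptake, -0.062 for thioesterases, -0.021 for the carnitine shuttle, -0.0092 for acylation, -0.0066 for droplets, -0.13 for ferroptosis and -0.42 for the transcription factors.

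With olaparib alone, counts of the same lists stand beside 19.6% of all genes called higher and 16% called lower. In the carnitine shuttle 5 of 8 rose and 0 fell, with CROT at 0.57 ± 0.061 (adjusted p = 6.36e-09), CPT1C at 0.48 ± 0.15 (adjusted p = 0.00946) and SLC25A20 at 0.18 ± 0.053 (adjusted p = 0.00761). Of elongation and desaturation genes 9 of 16 rose and 2 fell, with ELOVL5 at 0.63 ± 0.023 and HACD3 at 0.36 ± 0.033 (adjusted p = 6.20e-21 and 6.94e-11) and ELOVL6 at -0.51 ± 0.11 (adjusted p = 0.000240). Of acylation genes 11 of 22 rose and 4 fell, with LPCAT1 at 0.44 ± 0.029 (adjusted p = 1.41e-14), LPIN3 at 0.54 ± 0.068 (adjusted p = 5.67e-08) and MBOAT1 at -0.75 ± 0.13 (adjusted p = 1.63e-05). Of droplet genes 6 of 13 rose and 2 fell, with MGLL at 0.36 ± 0.038, HILPDA at 0.25 ± 0.051 and PNPLA2 at 0.24 ± 0.041.

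Of the other synthetases 5 of 14 rose and 2 fell with olaparib, with ACSM1 at 0.82 ± 0.17 (adjusted p = 0.000243), ACSM3 at 0.36 ± 0.067 and SLC27A2 at -0.44 ± 0.079. Of uptake and binding genes 2 of 12 rose and 6 fell, with ACBD4 at 0.32 ± 0.096, ACBD7 at -0.29 ± 0.084 and ACBD5 at -0.22 ± 0.043. Of thioesterases 4 of 9 rose and 2 fell, with ACOT8 at 0.25 ± 0.073, ACOT11 at 0.22 ± 0.078 and PPT1 at -0.23 ± 0.029. Of ferroptosis genes 8 of 19 rose and 4 fell, with SLC7A11 at -1.64 ± 0.071 (adjusted p = 1.59e-11) and FTL, the ferritin light chain, at 0.72 ± 0.038 (adjusted p = 4.08e-15). Of transcription factors 3 of 13 rose and 1 fell, with NR1H2 at 0.28 ± 0.055, RXRA at 0.16 ± 0.040 and NR1H3 at -0.31 ± 0.073. In the time course at the same dose and day, 4 of 13 uptake and binding genes rose and 4 fell. Of the transcription factors 4 rose and 3 fell there, where 46.3% of all genes passed. With talazoparib 2 of 12 uptake and binding genes rose and 2 fell. Of the transcription factors 1 rose and 5 fell with talazoparib, where 33.8% of all genes passed. ELOVL5 went in opposite directions with olaparib, at 0.63, and abiraterone, at -1.90 ± 0.024 (adjusted p = 3.81e-36). The median log2 fold change with olaparib was 0.12 for the other synthetases, -0.095 for uptake, 0.064 for thioesterases, 0.14 for the carnitine shuttle, 0.082 for acylation, 0.22 for droplets, 0.10 for elongation and desaturation, 0.073 for ferroptosis and -0.040 for the transcription factors, against 0.015 over all genes tested.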

How the data were processed

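RNA-seq libraries of C4-2B cells (39 libraries, 13 groups of 3) were made by the authors with a stranded mRNA kit, trimmed with Trim Galore, aligned to GRCh38 with STAR and quantified with Salmon on GENCODE. The authors deposited unnormalized estimated counts, 1 value per gene and library, in whole numbers. How they were rounded is not given in the sources used here. Of 63187 identifiers 62666 were paired with a symbol, while gene positions and lengths were read from GENCODE for the same genome, 1 release before the one the authors used.

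Counts were tested with edgeR 4.0.16 in R 4.3.3 (TMM, filterByExpr, robust quasi-likelihood fit), which was checked on simulated data. All groups of an experiment shared 1 fit without covariates, and p-values were adjusted by Benjamini-Hochberg over 18625 genes in the panel, 18502 in the time course and 19392 in the joint fit. The threshold was an adjusted p under 0.05. The SE of a log2 fold change was derived as its absolute value divided by the square root of the quasi-likelihood F statistic. A prior count of 2 was used for log2 CPM. The study's own differential test was DESeq2, used here (1.42.0) as an alternative, beside RLE and total-count scaling, no filter, fits of only the groups compared, a replicate block and leaving out each library.

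The members and lists were chosen with earlier results of these data known. Genes named are the 5 members, treatment checks and, per list, the 3 with the largest change with abiraterone and with olaparib among those called whose higher group averaged 100 counts or more; for each member, the 3 most correlated genes. Some genes that these rules name are not reported here. ELOVL5 with abiraterone was named after its value was seen, and enzalutamide values of 3 listed genes are given beside. Same-label replicates did not deviate together (correlations -0.069 to 0.064 in the panel and -0.133 to 0.116 in the time course). Between replicates, chi-square per degree of freedom was 2.18 to 6.03, so no replicate was a duplicate of another in its group. Libraries of different groups were not compared in this way. Promoter windows came from RefSeq. Protein sequences were not used here.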

Additional observations from a re-analysis of the deposited data

Results flagged for a closer look

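Differences between effects passed a test of the difference itself (edgeR interaction term, adjusted p under 0.05) in 13 cases, given with their log2 difference. For abiraterone and olaparib, the combination departed from the sum of its drugs by -0.18 for ACSL1, -0.23 for ACSL3 and 0.60 for ACSL4. For enzalutamide and talazoparib it departed by -0.22 for ACSL1 and -0.25 for ACSL3. The effect of olaparib on day 5 minus that on day 1 was 0.15 for ACSL1, 0.35 for ACSL3, 0.47 for ACSL4 and 1.45 for ACSL5 at 1 µM, and 0.13 for ACSL3, 0.90 for ACSL4 and 1.61 for ACSL5 at 5 µM. The effect of olaparib at 1 µM on day 5 differed between the panel and the time course by -0.10 for ACSL3. Single libraries were not tested as far from the others of their group.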

How the results depend on the processing

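The fall of ACSL3 with each ARPi and combination, the fall of ACSL4 with each ARPi alone and the rise of ACSL5 with every panel treatment and with olaparib on day 5 kept direction and call under every alternative run. With total-count scaling, log2 fold changes that gained the call were ACSL1 and ACSL6 with abiraterone (0.099 and 0.46), ACSL1 with olaparib at 1 µM on day 1 (0.059), and ACSL1 between abiraterone plus olaparib and abiraterone (-0.089) and between 5 and 1 µM on day 1 (0.060). Those that lost it were ACSL1 with olaparib (0.073), ACSL3 with talazoparib (0.016), ACSL1 and ACSL4 with olaparib at 5 µM on day 5 (0.034 and 0.23), ACSL1 and ACSL4 between abiraterone plus olaparib and olaparib (-0.063 and -0.28), and the differences between days for ACSL4 at 1 µM (0.42) and ACSL3 at 5 µM (0.0014). The difference between days at 5 µM for ACSL1 turned from 0.047, not called, to -0.085, called, where that scaling moved the median of all genes by -0.13. ACSL3 with talazoparib also lost its call with RLE scaling (0.058), without the filter (0.072) and in the fit of only the groups compared (0.050), as did ACSL1 with olaparib in the last (0.098). With DESeq2, ACSL6 at 1 µM on day 1 lost its call (0.63). Between the doses, ACSL6 on day 1 lost its call with DESeq2 (0.52) and without the filter (0.53), and ACSL1 on day 5 without the filter (-0.064). The difference between days for ACSL4 at 1 µM was lost with DESeq2 and without the filter (0.47 in both), and ACSL3 between the experiments with RLE scaling (-0.099) and without the filter (-0.11). The cause was not tested.

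Leaving out 1 library changed these calls, with ranges from lowest to highest: ACSL1 with abiraterone -0.019 to 0.078, enzalutamide -0.072 to 0.024, olaparib 0.065 to 0.16, abiraterone plus olaparib -0.082 to 0.015, enzalutamide plus talazoparib -0.079 to 0.018, and 5 µM on day 1 0.050 to 0.093; ACSL3 with talazoparib 0.034 to 0.071; ACSL4 with abiraterone plus olaparib -0.56 to -0.32, enzalutamide plus talazoparib -0.39 to -0.11, and 5 µM on day 5 0.25 to 0.40; ACSL6 with abiraterone 0.31 to 0.55 and 1 µM on day 1 0.49 to 0.80. Of 900 values with a library left out, called or not, 828 stayed on their side of the threshold, 60 lost a call and 12 gained one. With the replicate block 119 of 120 values, called or not, stayed on their side of the threshold, and the call was lost for ACSL1 between talazoparib and olaparib (0.10, adjusted p = 0.0579); for ACSL3 with abiraterone it gave -3.08. The block was not run in the joint fit, where the labels of the experiments share no number.

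The ACSL1 share moved with the length used. For DMSO, abiraterone, enzalutamide, olaparib, talazoparib, abiraterone plus olaparib and enzalutamide plus talazoparib it was 31%, 79.0%, 80.5%, 32.0%, 33.3%, 79.9% and 82.0% with the longest transcripts, and 17.4%, 63.9%, 66.1%, 18.1%, 18.9%, 65.5% and 68.5% without length scaling. Depth limits ACSL5, with 4 to 119 counts per library.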
